A study of Drosophila melanogaster with 6 samples.

Results

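The endoplasmic reticulum (ER) folding factors described here are 10 genes, chosen by symbol as the chaperones, lectins, disulfide isomerases and oxidase of the ER lumen and membrane, of the 17433 genes listed in the count table. They are *Hsc70-3*, *Gp93*, *CG2918*, *Calr*, *Cnx99A*, *Pdi*, *ERp60*, *CaBP1*, *prtp* and *Ero1L*, and all 10 had enough counts to test. Nuclear RNA of eye discs from *Drosophila melanogaster* larvae late in the third instar was sequenced in 3 control and 3 *GMR>Rh-1G69D* samples. Control larvae (titled WT) carried *GMR-GAL4* and *uas-EGFP::Msp300-KASH*, and *GMR>Rh-1G69D* larvae carried *uas-Rh-1G69D* in addition. The control is therefore not an unmanipulated wild type, since it also expressed the Gal4 driver and the nuclear envelope tag. *GMR-GAL4* is active in the cells behind the morphogenetic furrow, and EGFP-tagged nuclei were pulled down from pooled eye-antennal discs of many larvae. Rh-1G69D is a form of Rhodopsin-1 that misfolds in the ER, and the comparison asks how gene expression differs under the resulting ER stress.

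Proteins that enter the secretory pathway fold in the ER with the help of 3 sets of factors. Hsp70 and Hsp90 chaperones bind unfolded stretches of the chain, the lectins calnexin and calreticulin hold glycoproteins by their N-glycans, and disulfide isomerases form and rearrange disulfide bonds with oxidizing power supplied by Ero1. When unfolded proteins accumulate, the unfolded protein response (UPR), signalled by IRE1 with XBP1, ATF6 and PERK, is known in many animals to raise the RNA of these factors, and BiP, the product of *Hsc70-3*, is its common marker. No sequences of these genes or of their proteins were used here.

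Libraries held 21773452 to 30884519 counts on genes, and each folding factor had between 473 and 39325 counts in a library, so that counting error was at most 4.60% for any single value. *ninaE*, the gene of Rhodopsin-1, had 63, 1222 and 65 counts in control replicates 1, 2 and 3 and 3840, 3987 and 5115 counts in *GMR>Rh-1G69D* replicates 1, 2 and 3. Every *GMR>Rh-1G69D* library had more counts of this gene than every control, but control replicate 2 lay far above the other controls. The source of its counts was not tested. Of 13 markers of the eye disc behind the furrow, 0 were at 0 counts in every library. At an adjusted p under 0.05 (edgeR), 9 were lower in *GMR>Rh-1G69D* libraries, beside 4.96% of tested genes called in either direction. The median log2 fold change of the 13 was -1.31. Their summed level was 7390.2 to 10302 CPM in controls and 4539 to 7156 CPM in *GMR>Rh-1G69D* libraries. Most of this sum was *pros* and *elav* (means of 5390 and 1665 CPM in controls), which did not pass (edgeR adjusted p = 0.405 and 0.185). CPM are counts scaled to the size of the library after correction by its TMM factor. Control replicate 3 stood apart by 10 markers of fat body and salivary gland (larval serum proteins, *Fbp1* and glue proteins), which summed to 1903 CPM there, against 63.6 and 364 CPM in the other controls and 16.5 to 139 CPM in *GMR>Rh-1G69D* libraries. Markers of hemocytes (5 genes) summed to 124 to 139 CPM in controls and 238 to 273 CPM in *GMR>Rh-1G69D* libraries. Those of muscle (3 genes) summed to 84.5 to 109.7 CPM and 194 to 379.9 CPM, and those of glia (3 genes) to 58.7 to 82.3 CPM and 69.4 to 82.0 CPM. By edgeR, 1 of the 5 hemocyte genes (*Hml*) and 2 of the 3 muscle genes passed as higher, beside 1.24% of tested genes. Markers of the antennal disc (4 genes) summed to 1609.9 to 3926 CPM in controls and 1398 to 1697 CPM in *GMR>Rh-1G69D* libraries. Fat body and salivary gland are secretory tissues rich in ER, and the part of any of these cells in the values below was not tested.

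All 10 folding factors had a higher fitted level in *GMR>Rh-1G69D* than in control nuclei, but the differences were small, and 0 of 10 passed an adjusted p under 0.05 by edgeR's quasi-likelihood test. The log2 fold changes ran from 0.10 (*CG2918*) to 0.50 (*CaBP1*) with a median of 0.34, against a median of 0.04 over the 11818 genes tested. Of all tested genes, 52.5% had a log2 fold change above 0, 4.96% passed the test in either direction and 1.24% passed as higher. At an unadjusted p under 0.05, 2 factors were higher (*CaBP1* and *Hsc70-3*), beside 11% of tested genes. DESeq2 (3.87% of tested genes higher) and limma called 0 of 10 as well. In 3 factors (*Hsc70-3*, *CaBP1* and *prtp*) every *GMR>Rh-1G69D* library lay above every control, against 13.6% of tested genes, and in 0 factors below every control, against 14.6%. Standard errors of 0.18 to 0.25 gave 95% confidence intervals of 0.40 to 0.54 on either side of the estimate with 3 samples per genotype, and the intervals of all factors but *Hsc70-3* and *CaBP1* included 0. In such bulk libraries a change in the share of cells and a change in RNA per cell cannot be told apart.

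**Figure D1:**
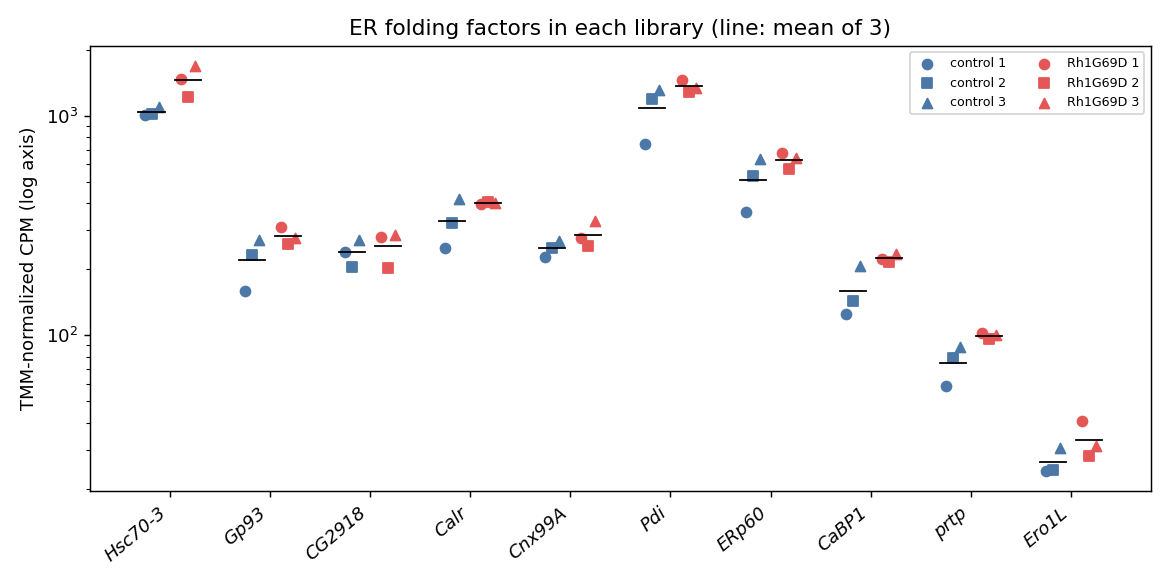
TMM-normalized CPM (log axis) of the 10 ER folding factors in each library; blue symbols are the 3 controls, red symbols the 3 GMR>Rh-1G69D libraries, symbol shapes the replicate number and black lines the genotype means. Hsc70-3, CaBP1 and prtp do not overlap between the genotypes, and control replicate 1 is the lowest library for 9 of 10 genes.

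*Hsc70-3* encodes BiP, the Hsp70 of the ER lumen, which binds nascent chains and keeps the UPR sensors inactive in unstressed cells. The gene lies on the minus strand of chromosome X of dm6 from 11801696 to 11807117, with 3589 bases of exon in 5 merged exons, and none of them overlaps an exon of another annotated gene. It had 1006, 1016 and 1093 CPM in the controls and 1471, 1220.3 and 1680.0 CPM in *GMR>Rh-1G69D* replicates 1, 2 and 3. The controls were nearly level (coefficient of variation 4.56%), the *GMR>Rh-1G69D* libraries were spread more widely (15.8%), and the genotypes did not overlap. The 1.40-fold difference (95% confidence interval 1.00 to 1.96, n = 3 each) was 0.49 ± 0.22 (SE of the fit) on the log2 scale, with an edgeR adjusted p of 0.207. Among all 10 factors *Hsc70-3* had the smallest spread in the controls.

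*Gp93* encodes the ER Hsp90, known as GRP94 in mammals, which folds a limited set of client proteins. It lies on chromosome 3R from 27948711 to 27952151 on the plus strand, and its exons overlap those of *CG4951* on the other strand. Since the strand setting of the counting is not given in the sources used here, reads of such a pair cannot be told apart, but *CG4951* had at most 7.38% of the count of *Gp93* in any library. *Gp93* had 159, 231 and 272 CPM in the controls and 311, 261 and 277 CPM in *GMR>Rh-1G69D* libraries. Control replicate 3 reached the *GMR>Rh-1G69D* range, and the log2 fold change of 0.36 (± 0.21, SE of the fit, edgeR adjusted p = 0.329) did not pass. *CG2918*, annotated as *Grp170*, encodes a large Hsp70-related protein whose mammalian counterpart releases nucleotide from BiP. It lies on chromosome X from 2271008 to 2275068 on the minus strand and had 239, 204 and 273 CPM in controls and 279.5, 202 and 287 CPM in *GMR>Rh-1G69D* libraries. Replicate 2 was the lowest library of either genotype, the genotypes overlapped, and the log2 fold change of 0.10 (95% confidence interval -0.33 to 0.54) was the smallest of the 10. It was also the only factor whose lowest library of all 6 was a *GMR>Rh-1G69D* library.

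The lectins *Calr* (calreticulin, soluble in the lumen) and *Cnx99A* (calnexin, a membrane protein that is needed for Rhodopsin-1 maturation in flies) differed in how their libraries were spread. *Calr* (chromosome 3R, 9628691 to 9630851, minus strand) had 251, 323 and 416 CPM in controls and 394, 405 and 401 CPM in *GMR>Rh-1G69D* libraries. The *GMR>Rh-1G69D* libraries agreed within a coefficient of variation of 1.31%, the controls differed by up to 1.66-fold, and control replicate 3 was the highest of all 6. Its log2 fold change was 0.28 (± 0.21, SE of the fit, edgeR adjusted p = 0.441). *Cnx99A* (chromosome 3R, 29315254 to 29319644, minus strand) had 227, 249.8 and 269 CPM in controls and 278, 254 and 330.3 CPM in *GMR>Rh-1G69D* libraries. Here the controls lay close together (8.49%), *GMR>Rh-1G69D* replicate 2 fell inside their range, and the log2 fold change was 0.21 (± 0.18, SE of the fit, edgeR adjusted p = 0.514).

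The 4 disulfide isomerases had log2 fold changes from 0.31 to 0.50. *Pdi* encodes the protein disulfide isomerase that is the founding member of the family. It lies on chromosome 3L from 15137738 to 15142840 on the minus strand and overlaps an antisense RNA, *CR45396*, which had at most 1.06% of its count. *Pdi* had 746, 1189 and 1308 CPM in controls and 1449, 1287 and 1338 CPM in *GMR>Rh-1G69D* libraries. Control replicate 1 lay far below the other 5 libraries, and controls 2 and 3 lay near the *GMR>Rh-1G69D* values. The log2 fold change was 0.33 (± 0.25, SE of the fit, edgeR adjusted p = 0.446). *ERp60*, whose mammalian counterpart works with calnexin and calreticulin on glycoproteins, lies on chromosome 2R from 11887568 to 11890979 on the minus strand, opposite *cuff*, which had at most 1.97% of its count. It had 363, 532 and 633 CPM in controls and 676, 572 and 643 CPM in *GMR>Rh-1G69D* libraries, the same order of controls as in *Pdi*. Its log2 fold change was 0.31 (± 0.23, SE of the fit, edgeR adjusted p = 0.435), and the genotypes overlapped.

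*CaBP1*, the counterpart of mammalian PDIA6, an isomerase with thioredoxin domains, lies on chromosome 2L from 16354886 to 16356735 on the minus strand. It had 125, 143 and 208 CPM in controls and 222, 215 and 236 CPM in *GMR>Rh-1G69D* libraries, with no overlap. This was the largest difference among the 10, 1.42-fold (95% confidence interval 1.03 to 1.94) or 0.50 on the log2 scale (± 0.21, SE of the fit, edgeR adjusted p = 0.170), and it did not pass. *prtp* (pretaporter) encodes an ER protein with thioredoxin domains that is known in flies as a ligand of the engulfment receptor Draper on dying cells. It lies on chromosome X from 11716756 to 11719894 on the plus strand and had 58.6, 78.6 and 88.2 CPM in controls and 103, 95.8 and 100.1 CPM in *GMR>Rh-1G69D* libraries. The genotypes did not overlap, and the log2 fold change of 0.41 (± 0.20, SE of the fit, edgeR adjusted p = 0.243) came after those of *CaBP1* and *Hsc70-3* in size.

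*Ero1L* encodes the oxidase that reoxidizes disulfide isomerase and yields hydrogen peroxide in doing so. It lies on chromosome 3L from 4170404 to 4173789 on the plus strand and had 24.1, 24.2 and 30.8 CPM in controls and 40.8, 28.2 and 31.3 CPM in *GMR>Rh-1G69D* libraries. *GMR>Rh-1G69D* replicate 1 was the highest library, and replicate 2 lay below control replicate 3. The log2 fold change was 0.34 (± 0.25, SE of the fit, edgeR adjusted p = 0.416).

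**Figure D2:**
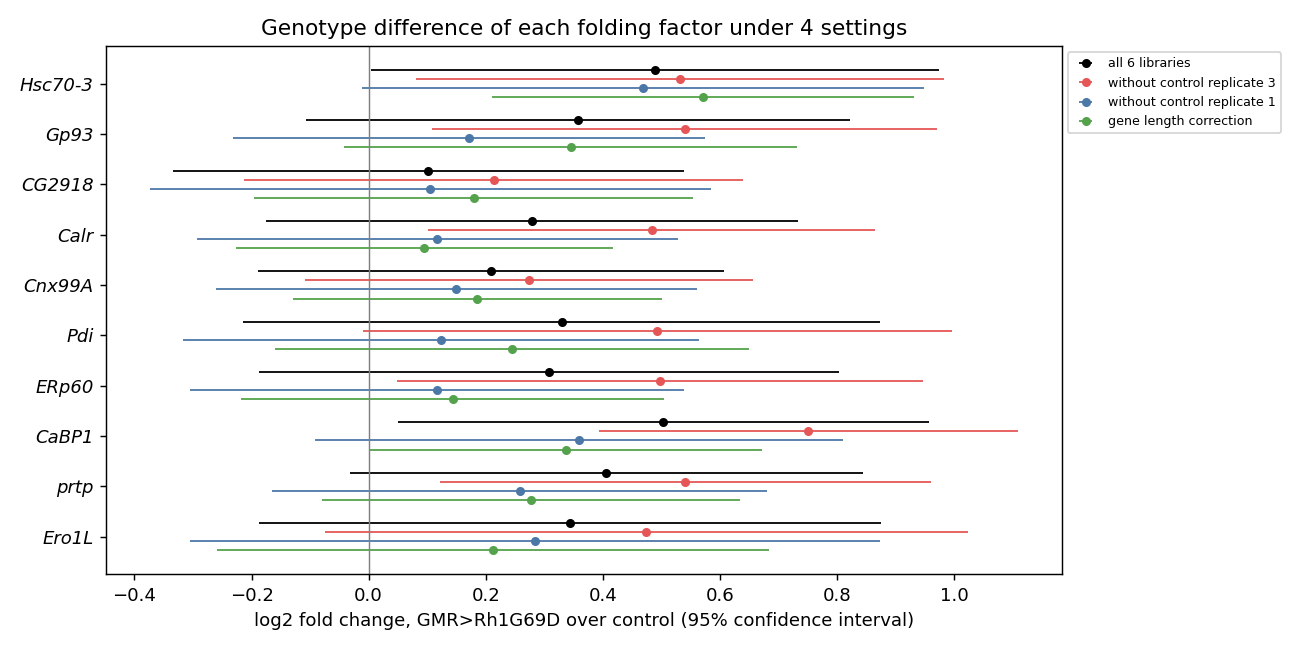
Log2 fold change of each ER folding factor, GMR>Rh-1G69D over control, with 95% confidence intervals by edgeR, for all 6 libraries (black), without control replicate 3 (red), without control replicate 1 (blue) and after a gene length correction (green). All points lie above 0; the values of CaBP1 run from 0.34 to 0.75 over these settings and those of Hsc70-3 from 0.47 to 0.57.

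The controls were not alike in these genes. Control replicate 1 was the lowest of its genotype in 9 of 10 factors and control replicate 3 the highest in 10 of 10, and the summed level of the 10 factors was 3198, 3991 and 4589.9 CPM in control replicates 1, 2 and 3 against 5225, 4541 and 5323 CPM in *GMR>Rh-1G69D* replicates 1, 2 and 3. Control replicate 3, with 1903 CPM of fat body and salivary gland markers, thus reached the lowest *GMR>Rh-1G69D* sum, that of replicate 2. Without control replicate 3 the median log2 fold change was 0.50, 9 of 10 factors did not overlap between the genotypes (27.9% of tested genes), and *CaBP1* passed with a log2 fold change of 0.75 (± 0.16, SE of the fit, edgeR adjusted p = 0.0101). In that comparison 10.7% of tested genes passed as higher, and *prtp*, *Calr*, *Gp93* and *Hsc70-3* had adjusted p-values of 0.0672 to 0.0900 by edgeR. Without control replicate 1 the median was 0.16, 0 of 10 passed (0.458% of tested genes higher) and 0 had an unadjusted p under 0.05 by edgeR. *Pdi*, *ERp60*, *Calr* and *Gp93* then had log2 fold changes of 0.12, 0.12, 0.12 and 0.17, whereas *Hsc70-3* (0.47) and *CaBP1* (0.36) were moved less. Without control replicate 2, the control with the most *ninaE* counts, the median was 0.37 and *CG2918* was at 0.01. In that fit 0 of 10 passed, beside 265 of 12119 tested genes in either direction. *GMR>Rh-1G69D* replicate 2 was the lowest of its genotype in 9 of 10 factors. Without it, 9 of 10 factors did not overlap (20.5% of tested genes), and 0 of 10 passed (0.476% of tested genes higher). With any library other than it or control replicate 3 left out, the number without overlap was 3. The share of tested genes without overlap was not computed for those fits, so that number cannot be set against it.

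The level of genes by their length also differed between the libraries. Among tested genes of 1525 to 2297 bases of exon, a bin by length that held 5 of the 10 factors, the median deviation from the mean of all libraries was -0.24, -0.11 and 0.10 in control replicates 1, 2 and 3 and 0.08 to 0.17 in *GMR>Rh-1G69D* libraries on the log2 scale. In the bin of the longest genes, 3751 bases and above, it was 0.31, 0.18 and -0.04 in the controls and -0.10 to -0.19 in *GMR>Rh-1G69D* libraries. The other 5 factors were 2298 to 3750 bases long, where the medians lay between -0.07 and 0.09 in all 6 libraries. After a correction of each library for length 0 of 10 factors passed (1.18% of tested genes higher), and *Hsc70-3* had a log2 fold change of 0.57 (95% confidence interval 0.21 to 0.93, edgeR adjusted p = 0.0732), while the other 9 factors ranged from 0.09 to 0.35. The median of the 10 was then 0.23. The correction also removes any genotype difference that follows gene length, which cannot be told apart from other differences between libraries. *Calr* had the lowest value after this correction, 0.09 (95% confidence interval -0.23 to 0.42). Over all 17 alternative settings, the log2 fold change stayed above 0 in each of the 170 fits of a factor. These fits reuse the same 6 libraries and are not independent of each other.

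Compared per length of transcript, in the deposited FPKM (counts divided by the exon length and the library total), *Pdi* was the most abundant factor and *Ero1L* the least. In the controls *Pdi* stood at 456 ± 149 FPKM (SD, n = 3), *Hsc70-3* at 281 ± 29.4 FPKM, *ERp60* at 276 ± 84.9 FPKM and *Calr* at 192 ± 53.0 FPKM. A second tier below them held *Cnx99A* (86.6 ± 12.9 FPKM), *CaBP1* (86.3 ± 24.2 FPKM), *Gp93* (76.1 ± 23.0 FPKM) and *CG2918* (64.3 ± 6.94 FPKM), whose ranges overlapped. The lowest were *prtp*, itself counted among the isomerases, at 35.4 ± 8.99 FPKM and *Ero1L*, the oxidase, at 12.2 ± 1.88 FPKM. Among the 17433 genes listed *Pdi* ranked 75 and *Ero1L* 4554 by mean FPKM of the controls. Of the 9 pairs of neighbours in this order, 6 overlapped in their ranges over the controls. Only *Calr* over *Cnx99A*, *CG2918* over *prtp* and *prtp* over *Ero1L* were apart. Compared within each library, 5 of the 9 pairs had the same order in all 3 controls, and *Hsc70-3* lay above *ERp60* in only 1 of 3. In *GMR>Rh-1G69D* libraries *Pdi* stood at 602 ± 38.5 FPKM, *Hsc70-3* at 418 ± 58.4 FPKM and *Ero1L* at 16.4 ± 3.29 FPKM. The order was the same as in controls except that *CaBP1* (129.9 ± 3.43 FPKM) lay above *Cnx99A* (106 ± 12.2 FPKM). Here 7 of the 9 pairs were apart in their ranges, and 8 of the 9 had the same order in every *GMR>Rh-1G69D* library. FPKM are scaled by the library total alone, and the TMM factor of control replicate 1, 0.887, was below those of the other 5 libraries (0.948 to 1.08). On the FPKM scale, without the TMM factors, 7 of 10 factors did not overlap between the genotypes, beside 18.6% of tested genes.

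The shares of the factors in their summed nuclear RNA overlapped between the genotypes, and their proteins were not measured. Of the summed FPKM of the 10 genes, the 4 disulfide isomerases took 53.8% ± 4.20 in controls and 54.3% ± 1.79 in *GMR>Rh-1G69D* libraries (SD, n = 3 each). The Hsp70 and Hsp90 chaperones took 27.5% ± 3.77 and 28.2% ± 2.11, the lectins 17.8% ± 0.551 and 16.8% ± 0.998, and *Ero1L* 0.793% ± 0.103 and 0.778% ± 0.120. These shares do not depend on how libraries are scaled to each other, and the overlap held for every factor and every class. *Hsc70-3* took 22.2%, 17.3% and 16.0% in control replicates 1, 2 and 3 and 19.3%, 18.2% and 22.0% in *GMR>Rh-1G69D* replicates 1, 2 and 3. The ratio of *Hsc70-3* to *Pdi* was 0.875, 0.554 and 0.542 in the controls and 0.658, 0.615 and 0.814 in *GMR>Rh-1G69D* libraries, so that control replicate 1 had the most BiP transcript per *Pdi* transcript of all 6. The ratio of *Pdi* to *ERp60* was nearly constant, between 1.59 and 1.75 in all 6 libraries.

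**Figure D3:**
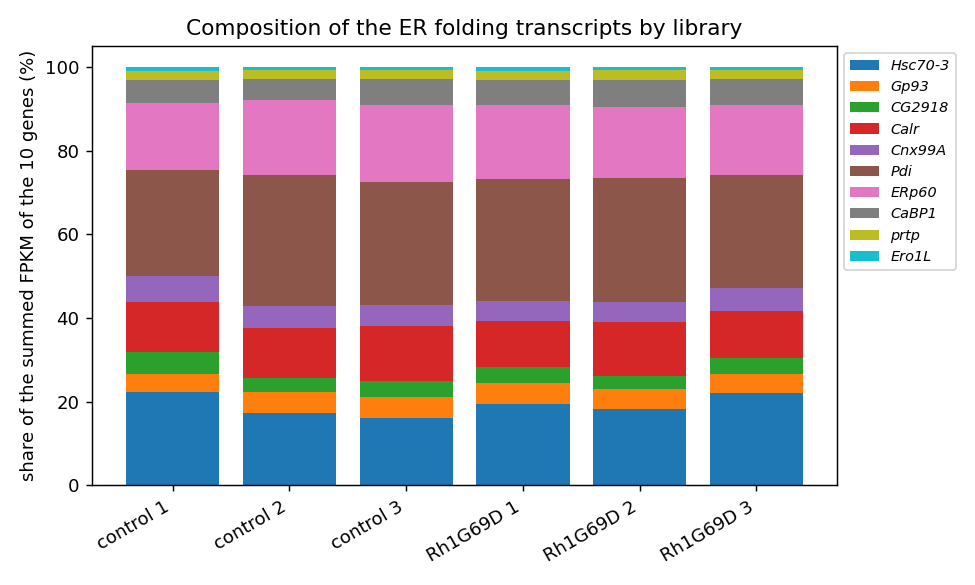
Share of each gene in the summed FPKM of the 10 ER folding factors (%, stacked to 100), by library. Pdi, Hsc70-3 and ERp60 take most of the sum in every library, and Hsc70-3 ranges from 16.0% in control replicate 3 to 22.2% in control replicate 1.

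The genes whose levels over the 6 libraries were most like the mean standardized profile of the 10 factors were *RhoGEF4*, *CG10576*, *Hsc70-4*, *Ssu72* and *Cse1*, with Pearson coefficients of 0.991 to 0.995 among 4133 candidates. *Hsc70-4* encodes the main cytosolic Hsp70 of flies, the relative of BiP outside the ER. It had 2353 CPM in controls and 3283 CPM in *GMR>Rh-1G69D* libraries (log2 fold change 0.48, standard error 0.27, adjusted p = 0.303 by edgeR). The 5 genes did not pass the test either, with log2 fold changes of 0.29 to 0.61. With 6 libraries of 2 genotypes and this many candidates such coefficients are a description only, and the points share the library and the genotype.

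**Figure D4:**
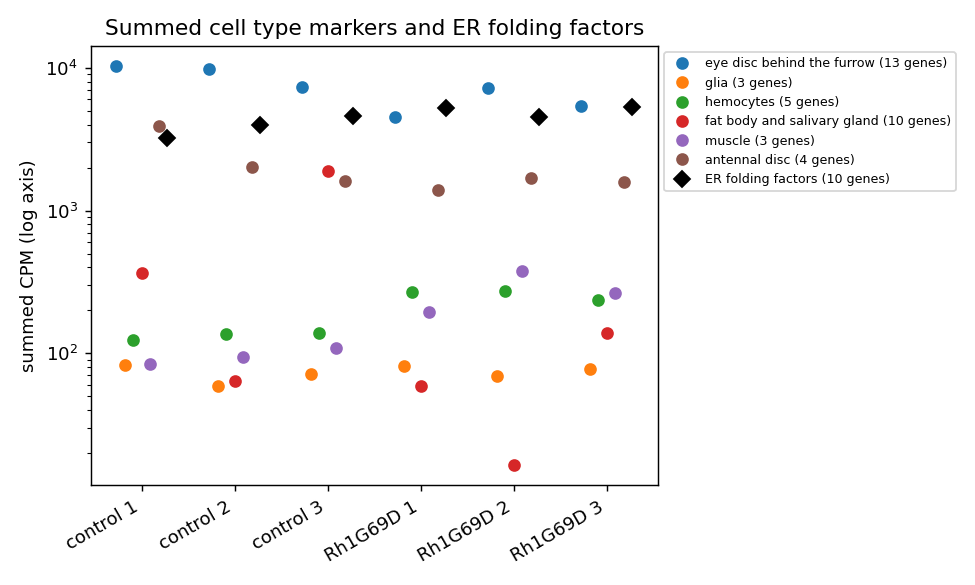
Summed TMM-normalized CPM (log axis) of the cell type marker lists and of the 10 ER folding factors (black diamonds) in each library. Fat body and salivary gland markers reach 1903 CPM in control replicate 3. The sums of hemocyte and of muscle markers, though not every gene in them, are higher in all 3 GMR>Rh-1G69D libraries than in the controls.

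Of 27 further genes of ER protein folding, 24 were tested, 2 passed as higher and 0 as lower by edgeR (4.96% of tested genes in either direction), and 16 were above 0 with a median log2 fold change of 0.16. At an unadjusted p under 0.05 there were 6 in either direction, those 2 included, beside 23.8% of tested genes. *Sil1* (counted as *CG10420*), whose mammalian counterpart is a nucleotide exchange factor of BiP, had 8.45, 5.41 and 12.3 CPM in controls and 22.5, 20.0 and 31.4 CPM in *GMR>Rh-1G69D* libraries. It rose by 1.50 in log2 units (± 0.35, SE of the fit, edgeR adjusted p = 0.0268), with no overlap. *Manf*, a secreted protein of the ER lumen that protects neurons and is known to respond to ER stress in mammals, had 93.1, 67.3 and 105.8 CPM in controls and 172, 138 and 181 CPM in *GMR>Rh-1G69D* libraries. It rose by 0.88 in log2 units (± 0.21, SE of the fit, edgeR adjusted p = 0.0317), with no overlap. Both lost the call without control replicate 1, control replicate 2, *GMR>Rh-1G69D* replicate 1 or *GMR>Rh-1G69D* replicate 3, where their adjusted p-values were 0.0748 to 0.149 by edgeR. Their log2 fold changes were then 1.25 to 1.57 for *Sil1* and 0.73 to 0.92 for *Manf*. *Manf* lost the call after the gene length correction too (0.65, adjusted p = 0.0693 by edgeR) but passed with that correction and a replicate block together (0.64, adjusted p = 0.0457 by edgeR).

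Except in the prolyl isomerases, values within each group of these genes lay on both sides of 0. Among the Hsp70 cofactors of the ER, 4 of 5 were above 0, and *l(3)80Fg*, which encodes a J-domain protein, was the exception at -0.53 (edgeR adjusted p = 0.206). *P58IPK*, a J-domain partner of BiP, had a log2 fold change of 0.49 (edgeR adjusted p = 0.165) with no overlap between the genotypes. Of the other thioredoxin-fold and oxidase genes 8 of 10 were tested, with values from -0.18 (*Qsox1*) to 1.02 (*Qsox2*, a sulfhydryl oxidase, adjusted p = 0.0889 by edgeR, though called by DESeq2), and *CG10029* was at 0 counts in every library. In the glycoprotein folding cycle, which feeds the lectins, 1 of 5 was above 0. *Uggt*, the glucosyltransferase that returns unfolded glycoproteins to calnexin and calreticulin, had a log2 fold change of -0.04 (95% confidence interval -0.42 to 0.33), and the group ran from -0.20 (*Cnx14D*, 1.78 CPM in controls) to 0.43 (*GCS1*). The prolyl isomerases *CG2852*, *CG14715* and *Fkbp14* had values from 0.17 (*Fkbp14*) to 0.56 (*CG2852*), and *ninaA*, the isomerase that escorts Rhodopsin-1, had 0 counts in every library. *Creld* was at -0.37, the lowest of the other ER folding proteins. Without control replicate 3 the number of these further genes that passed was 6 of 24 in place of 2, with *l(3)80Fg* as the 1 that was lower, beside 20.5% of tested genes in either direction in that fit.

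Of the UPR regulators, 0 of 6 passed by edgeR, DESeq2 or limma (4.96% of tested genes by edgeR), 1 had an unadjusted p under 0.05 by edgeR (23.8%), and 3 were above 0 (52.5%). These counts were near the shares over all tested genes. The values are RNA levels by gene, and the activity of these regulators was not measured. *Xbp1*, the transcription factor made active by IRE1, had 111, 133 and 172 CPM in controls and 183, 196 and 176 CPM in *GMR>Rh-1G69D* libraries, with no overlap. Its log2 fold change was 0.41 (± 0.20, SE of the fit, edgeR adjusted p = 0.224), near those of *prtp* and *Hsc70-3*. *Xbp1* passed in 1 of 17 alternatives, without control replicate 3 (0.60, edgeR adjusted p = 0.0285), where 10.7% of tested genes passed as higher. *Ire1* had the lowest value, -0.58 (± 0.25, SE of the fit, edgeR adjusted p = 0.182). The others were *Atf6* (-0.41), *PEK* (-0.19), *PPP1R15* (0.09) and *crc* (0.15).

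**Figure D5:**
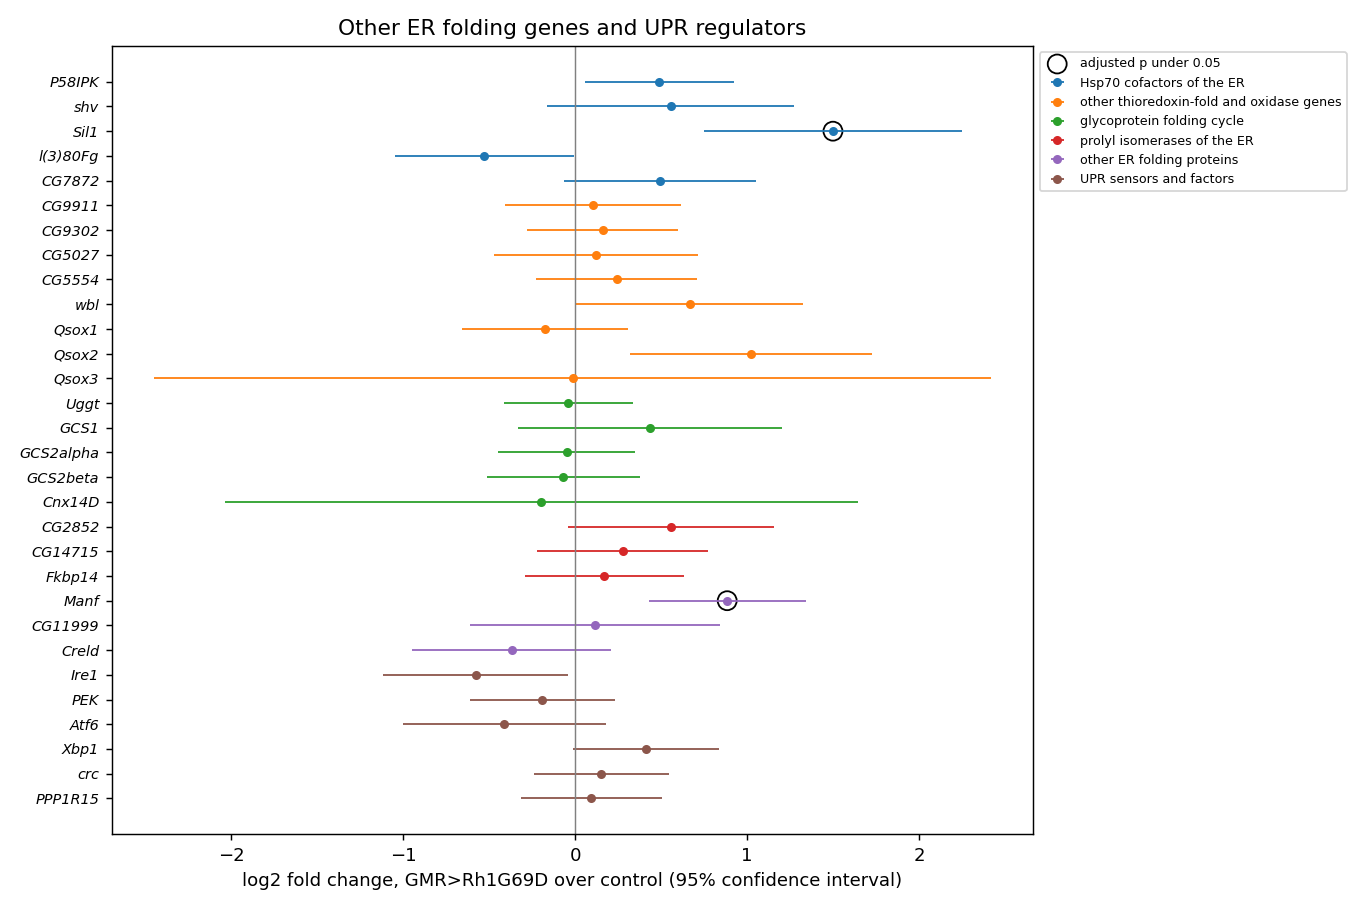
Log2 fold change with 95% confidence interval by edgeR of the other ER folding genes tested and of the UPR regulators, coloured by group; circles mark an adjusted p under 0.05. Sil1 (1.50) and Manf (0.88) are the genes circled.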

How the data were processed

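The authors mapped paired-end reads to dm6 by STAR and assigned them to genes by featureCounts (STAR 2.6.1d and Subread 1.6.3, from the submitters' processing notes). They deposited raw counts, normalized counts (a signal, the counts divided by 1 size factor per sample) and FPKM. Neither the annotation release nor the strand setting of the counting is given in the sources used here. The exon lengths behind the deposited FPKM, recovered as raw count over FPKM and library total, were those of the Ensembl annotation (BDGP6, dm6 coordinates) for all 10 genes, and coordinates were taken from it.

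Raw counts were fitted in R 4.3.3 with edgeR 4.0.16 (filterByExpr, TMM, quasi-likelihood F test on genotype, two-sided). Adjusted p-values are Benjamini-Hochberg values over all 11818 genes tested, and an adjusted p under 0.05 is a call. Standard errors were log2 fold change over the square root of F. The members and all gene lists were chosen with earlier results of these data known. The text names all 10 members, list genes that passed or had the largest or smallest change of their list, the 5 genes with the highest Pearson correlation with the mean standardized log2 CPM of the members (average log2 CPM of at least 5), and *ninaE*. *P58IPK*, *Uggt*, *CG14715*, *CG10029*, *ninaA* and the remaining UPR regulators were named in addition after their values were seen. Symbols absent from the table were matched through RefSeq synonyms.

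Alternatives were DESeq2 1.42.0, RLE, other filters, a replicate block, a gene length correction (a lowess fit against log2 length, span 0.5, subtracted within each library), limma 3.58.1 on log2 of the deposited normalized counts and FPKM (pseudocounts 1 and 0.1), robust dispersion, and each library left out. The pipeline was tested on simulated data. A two-sided exact permutation test of 3 against 3 samples cannot give a p under 0.1, so none was used. Each sample was a separate pool of larvae, so p-values measure the spread between pools.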

Additional observations from a re-analysis of the deposited data

How the results depend on the processing

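The number of folding factors called was 0 with all 6 libraries under every alternative fit at an adjusted p under 0.05. In the main fit, without a gene length correction or replicate block, it was also 0 at adjusted p thresholds of 0.01 and 0.1. *Hsc70-3* had an edgeR adjusted p of 0.0732 after the gene length correction and 0.0982 with a replicate block in addition. The number of factors called ranged from 0 to 1, in total and as higher, when a library was left out. Their median log2 fold change (0.34) ranged from 0.16 without control replicate 1 to 0.50 without control replicate 3. The factors whose genotypes did not overlap (3) numbered 7 on the deposited FPKM and 3 to 9 with a library left out. The shares of tested genes that did so as higher were 13.6% in the main fit and 18.6% on FPKM. They were 27.9% without control replicate 3 and 20.5% without *GMR>Rh-1G69D* replicate 2, and were not computed without any other library. The summed CPM was 1.28 times as high in *GMR>Rh-1G69D* libraries, and 1.26 to 1.35 times with other scalings. The other ER folding genes called (2) numbered 3 by DESeq2, 1 after the gene length correction and 0 to 6 with a library left out. Of all genes, 586 were called, 1438 by DESeq2, 357 by limma on log2 FPKM with a pseudocount of 0.1, and 181 to 2504 with a library left out (2504 without control replicate 3, and at most 348 without any other). With a replicate block the numbers were 0 factors, 2 other folding genes and 734 genes. Same-numbered samples were separate pools whose deviations correlated at 0.00, 0.07 and 0.16 across genes, so the numbers were not taken to pair them. The cause of these shifts was not tested.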

Other observations

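The ratio of *Hsc70-3* to *Manf*, chosen after the values were seen, was 2.55, 3.56 and 2.44 in control replicates 1, 2 and 3 and 2.02, 2.09 and 2.19 in *GMR>Rh-1G69D* replicates 1, 2 and 3, from deposited FPKM. The genotypes did not overlap in this ratio, but did in the other 5 ratios computed. The 95% confidence intervals of the log2 fold changes of *Manf* (0.43 to 1.34) and *Hsc70-3* (0.00 to 0.97) overlapped. Both genes were measured in the same libraries, so that overlap does not test whether their changes differ, and the ratio was not tested. The coefficient of variation of CPM was larger in controls than in *GMR>Rh-1G69D* libraries for 6 of the 10 folding factors and for 62.7% of all tested genes. The median over the 10 factors was 22.6% in controls and 8.77% in *GMR>Rh-1G69D* libraries, against 29.2% and 20.9% over all tested genes.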
